A study of Arabidopsis thaliana with 24 samples.

Results

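The transcripts described here are 192 probe sets of an expression array that read higher in the Arabidopsis thaliana mutant pnp1-1 than in wild type in all 4 conditions of the study. They were chosen from the measured values. Each array value was put on a log2 scale with levels under 4 (an intensity of 16) set to 4, the 3 arrays of each group were averaged, and a probe set was kept where the pnp1-1 minus WT difference was at least 0.8 (1.74-fold) on both media at both times. Only probe sets with an ID number at or above a limit meant to leave out organelle genes were eligible, which left 22620 of the 22746 probe sets that are not controls. The differences between the genotypes are therefore given as descriptions, with no test.

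The pnp1-1 groups held seedlings carrying the insertion allele SALK_013306 in the Columbia-0 background, and the WT groups held Col-0 seedlings of the same age on the same medium. For the first 2 weeks all seedlings had full nutrient medium, and were then moved to medium lacking phosphate (-P) or holding it (+P), where they stayed for 3 h or 1 week. All groups shared 0.5% sucrose, growth at 22 °C and a 16 h photoperiod. Roots were cut off before RNA was extracted, and each of the 3 biological replicates of a group pooled at least 4 seedlings, which gives 24 arrays in 8 groups. One insertion allele stands for the loss of the gene. The values are intensities, which have no absolute unit, and levels are compared within a probe set and within a time only.

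PNP1 is the chloroplast polynucleotide phosphorylase, an enzyme that trims and degrades plastid RNA from its end. Plants that lose control over an organelle are known to alter nuclear transcripts, and genes such as that of the mitochondrial protein UPOX are textbook reporters of such stress. Another system met below is the ER body, a compartment of the endoplasmic reticulum in mustard family plants that stores the beta-glucosidase PYK10. When tissue is damaged, PYK10 meets jacalin-related lectins, which bind sugars, and the complex releases toxic products from glucosides.

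Of the 192 probe sets, 100 carried a single annotated gene, 2 carried several and 90 carried none in the annotation used here, so the account by function covers about 52.1% of them. The set was not wholly nuclear. Among the single genes, 98 lie in the nucleus and 2, matK and rps16, lie in the plastid genome, out of 4 plastid-genome probe sets in the eligible range. For 10 of the 192, the probe set's suffix marks probes that can match several transcripts. No sequence is shown, because none was at hand for these probe sets.

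Across the series, the mean intensity of an array was between 470 and 503 at 3 h and between 593 and 612 at 1 week, and 40.3% to 41.5% of probe sets on each array lay under 16. No probe set was annotated to PNP1, so the targeted transcript was not analysed here. As a check of tissue, the light-harvesting gene LHCB4.1 read 12854 to 21701 in pnp1-1 and 17556 to 24925 in WT. The root-hair expansin EXPA7, the only annotated one of 10 root markers, lay under 16 on every array. In whole shoots, a change in the share of a cell type cannot be told apart from a change of RNA per cell.

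The differences were large for much of the set. Their median was 1.59 on -P and 1.72 on +P at 3 h, and 1.39 on -P and 1.97 on +P at 1 week, where the median over all eligible probe sets was 0 in each condition. The median level of the members was an intensity of 161.5 in pnp1-1 and 39.2 in WT on -P at 3 h, and 148 in pnp1-1 and 31.8 in WT on +P. At 1 week it was 413 in pnp1-1 and 133 in WT on -P, and 351 in pnp1-1 and 76.0 in WT on +P. The largest differences were 5.30, 4.32, 4.39 and 6.13 in that order of conditions, and 16 members differed at least 4-fold in every condition. The rule itself admitted 4.12%, 5.35%, 2.98% and 5.32% of eligible probe sets in the single conditions, and 0.849% in all of them.

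**Figure D1:**
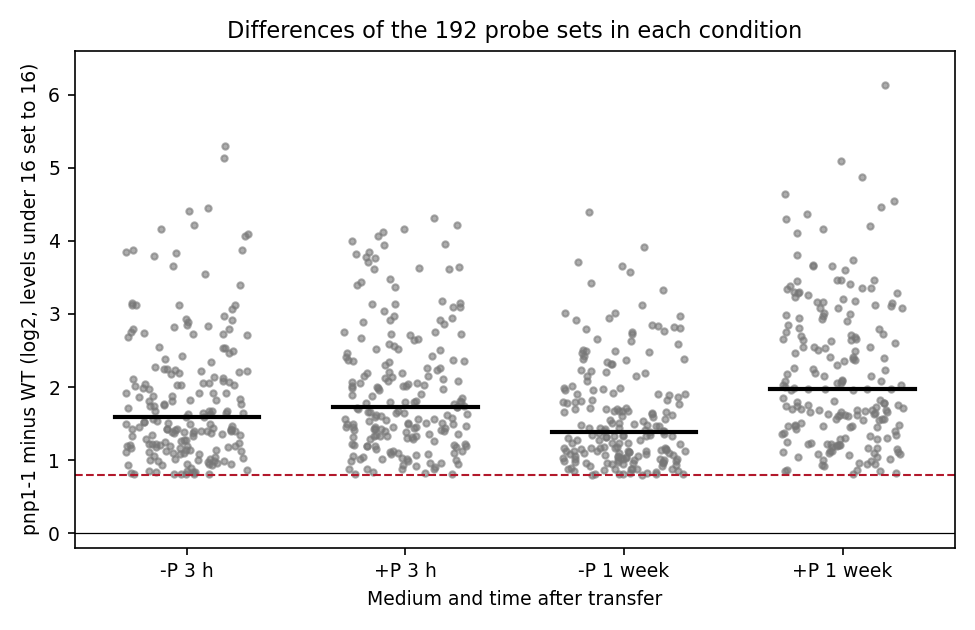
The pnp1-1 minus WT difference of each of the 192 probe sets (log2 scale, levels under 16 set to 16; 1 point per probe set) is plotted for the 4 combinations of medium and time, with black bars at the medians and a dashed line at the 0.8 that chose them. The medians are 1.59, 1.72, 1.39 and 1.97 from left to right, and points crowd just above the line most on -P at 1 week.

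After 1 week the members stood further apart on +P than on -P. The +P condition at 1 week held the largest of the 4 differences for 84 members and the smallest for 18, whereas -P at 1 week held the largest for 23 and the smallest for 90. The wider gap on +P was not particular to the members. Of all eligible probe sets at 1 week, 5.32% on +P and 2.98% on -P were at least 0.8 higher in pnp1-1. At least 0.8 lower were 5.38% on +P and 3.17% on -P. At 3 h, 38 members had their largest difference on -P and 47 on +P. Over the 192 members, the differences on -P and +P correlated at 0.74 at 3 h and at 0.65 at 1 week (Pearson), and at 0.26 to 0.42 between the times. These correlations describe probe sets that all had to pass 0.8 in both conditions, and same-numbered arrays of the media also varied together at 3 h.

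Single arrays overlapped between the genotypes for part of the set. All 3 pnp1-1 arrays lay above all 3 WT arrays for 143 members on -P at 3 h (11.2% of all eligible probe sets did so), for 169 on +P at 3 h (9.77%), for 148 on -P at 1 week (6.84%) and for 182 on +P at 1 week (12%). This held in all 4 conditions for 99 members (1.09% of eligible probe sets). On -P, same-numbered arrays of the genotypes varied together at both times. There pnp1-1 was above WT in all 3 same-numbered pairs for 179 members at 3 h (15.8% of eligible probe sets, levels under 16 set to 16) and for 188 at 1 week (14.5%). The same arrays fed the rule that chose the members. All these shares are therefore not like for like with those of eligible probe sets, and were not tested. For 138 members at least 1 WT array reached 16 in every condition, while for 25, 23, 3 and 3 members all WT arrays stayed under 16 in 1, 2, 3 and 4 conditions. Differences of those members are measured from the floor.

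A group of 7 members held the ER body and its lectins. Their median differences were 2.49 on -P and 1.80 on +P at 3 h, and 2.24 on -P and 3.46 on +P at 1 week. PYK10 is the beta-glucosidase that fills the ER body. At 3 h it read 3994, 6499 and 6901 in pnp1-1 on -P, against 852, 1270.5 and 1156 in WT, and 3372, 7703 and 3976 in pnp1-1 on +P, against 1007, 1633 and 1484 in WT. At 1 week it read 8984, 8160.0 and 8769 in pnp1-1 on -P, against 987, 3027 and 2051 in WT, and 11246, 10641 and 9549.8 in pnp1-1 on +P, against 876, 857 and 1138 in WT. Every pnp1-1 array lay above every WT array within each condition, and the WT arrays on -P at 1 week were the most scattered. The differences of PYK10 were 2.39 on -P and 1.80 on +P at 3 h, and 2.24 on -P and 3.46 on +P at 1 week.

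NAI2, a protein needed to form ER bodies, was higher as well. On -P it read 864, 1027 and 1364 in pnp1-1 at 3 h, against 175, 213 and 185 in WT, and 1194, 1445 and 1686 in pnp1-1 at 1 week, against 84.8, 366 and 297 in WT. On +P it read 745, 1491 and 699 in pnp1-1 at 3 h, against 305, 356 and 204 in WT, and 1891, 1950.3 and 1637 in pnp1-1 at 1 week, against 141, 114 and 185 in WT. The genotypes did not overlap, and the WT array lowest on -P at 1 week was again replicate 1. The differences of NAI2 came to 2.49 on -P and 1.71 on +P at 3 h, and 2.77 on -P and 3.66 on +P at 1 week.

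A further 3 ER body genes in the set encode jacalin-related lectins of the PYK10 complex. JAL33 read 860.0, 1079 and 1706 in pnp1-1 on -P at 3 h, against 69.9, 94.9 and 149 in WT, and 2345, 2247 and 2849 in pnp1-1 on +P at 1 week, against 209.9, 158 and 193 in WT. JAL34 read 1581, 2396 and 3311 in pnp1-1 on -P at 3 h, against 199.9, 412 and 402 in WT, and 3049.6, 3676 and 2989 in pnp1-1 on +P at 1 week, against 405, 332 and 497 in WT. For JAL22, arrays on +P at 3 h gave 863, 832 and 499 in pnp1-1, against 267, 416 and 439.7 in WT. Those JAL22 groups came close but did not overlap, at a difference of 0.96, its smallest, while on +P at 1 week it reached 3.13. JAL33 and JAL34 are neighbours in the genome annotation, and whether their probes tell the related transcripts apart was not tested.

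The lectin with the largest difference was the product of AT1G52100, a jacalin-related protein that is not among the listed partners of PYK10. It read 649, 916 and 1716 in pnp1-1 on -P at 3 h, against 27.7, 18.5 and 32.6 in WT, and 576, 1391 and 981 in pnp1-1 on +P, against 51.1, 64.5 and 41.7 in WT. At 1 week it read 471, 455 and 1502 in pnp1-1 on -P, against 49.0, 51.7 and 36.6 in WT, and 793, 696 and 1338 in pnp1-1 on +P, against 36.3, 36.2 and 36.0 in WT. The genotypes lay far apart within each condition, with differences of 5.30 on -P and 4.16 on +P at 3 h, and 3.92 on -P and 4.64 on +P at 1 week. A last lectin, that of AT1G33790, differed by 2.14 on -P and 1.67 on +P at 3 h, and 2.15 on -P and 1.70 on +P at 1 week.

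Not every ER body gene joined the set. Of 15 genes listed for the ER body and the PYK10 complex, 7 had an annotated probe set, and 5 of these were members. The other two were NAI1, the transcription factor that drives the ER body genes, and the lectin JAL23. NAI1 differed by 1.81 on -P and 1.02 on +P at 3 h, and 0.30 on -P and 0.68 on +P at 1 week, which kept it out at 1 week. JAL23 differed by 1.90 on -P and 0.36 on +P at 3 h, and -1.20 on -P and 1.42 on +P at 1 week, and so was lower in pnp1-1 than in WT in the third of these conditions. This list was drawn up after the values had been seen. Its share of members is therefore not like for like with the 0.849% of all eligible probe sets.

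**Figure D2:**
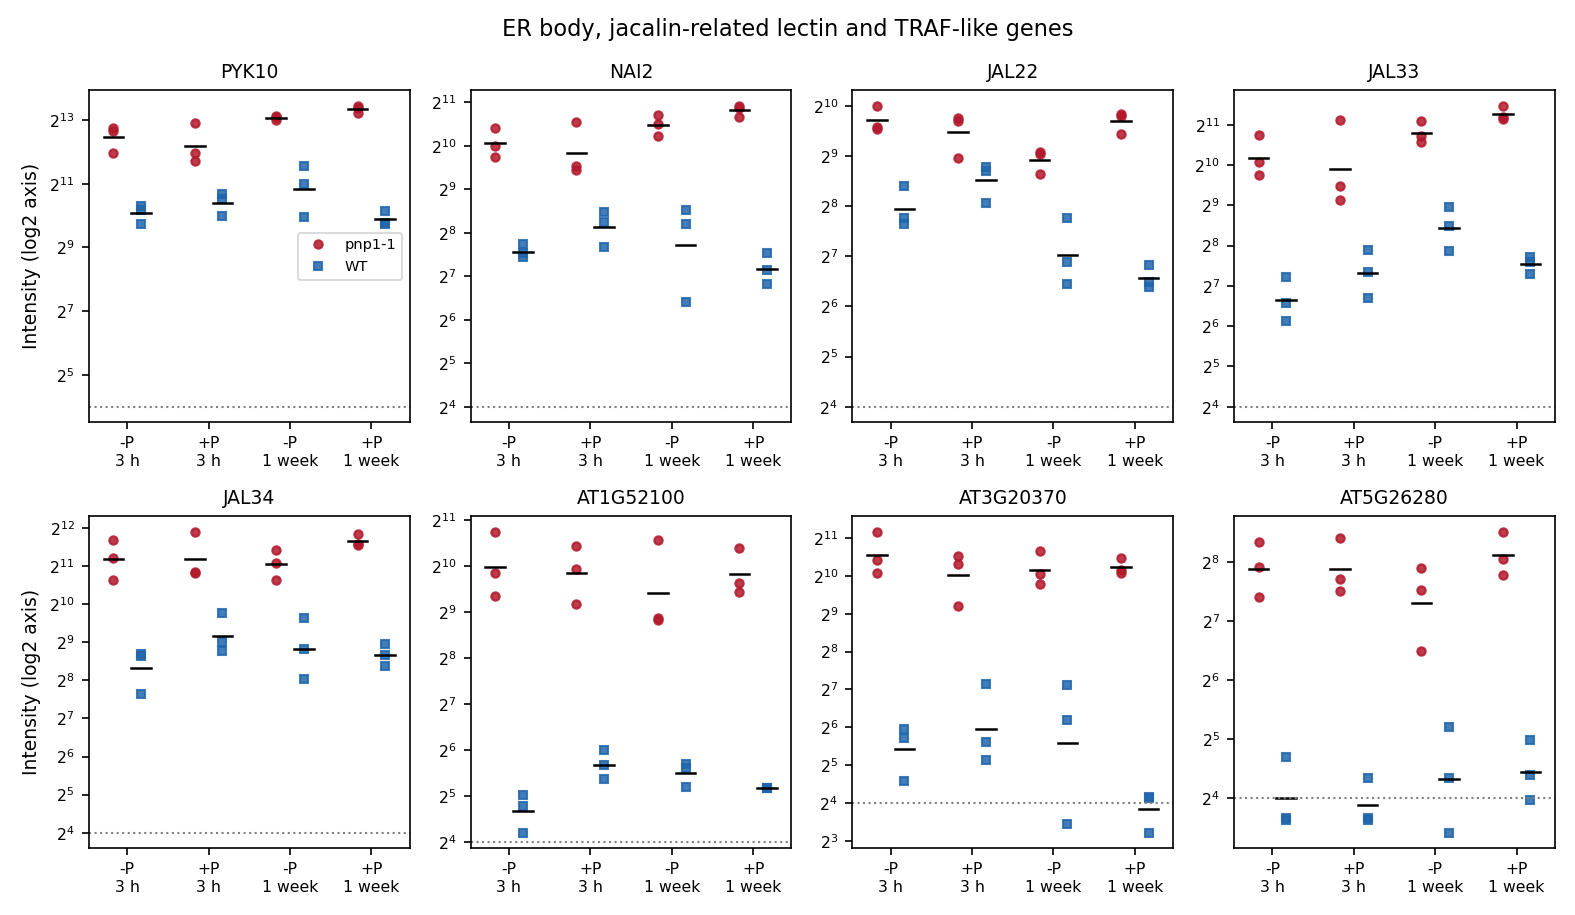
Each panel shows the intensity on every array (log2 axis, dotted line at 16) of a gene with large or group-defining differences, with pnp1-1 as red circles to the left of WT as blue squares in each condition, and black bars at the means of the log2 values. Within each condition the pnp1-1 arrays lie above the WT arrays in all 8 panels, and WT values of AT3G20370 reach down to 9.31 on +P at 1 week.

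The largest mean difference of any annotated member belonged to AT3G20370, which encodes a TRAF-like protein with the MATH fold, a module for binding other proteins. It read 1087, 1368 and 2301 in pnp1-1 on -P at 3 h, against 24.1, 52.9 and 62.5 in WT, and 594, 1477 and 1274 in pnp1-1 on +P, against 48.8, 141 and 35.0 in WT. At 1 week the arrays gave 1053, 880.4 and 1608 in pnp1-1 on -P, against 10.9, 139 and 72.8 in WT, and 1074, 1431 and 1132 in pnp1-1 on +P, against 17.7, 9.31 and 17.9 in WT. The genotypes did not overlap in any condition, and the WT arrays on -P at 1 week spread widely. Its differences were 5.13 on -P and 4.06 on +P at 3 h, and 4.39 on -P and 6.13 on +P at 1 week, the last being the largest of all 192.

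A related gene, AT5G26280, also encodes a TRAF-like protein and is a direct neighbour of another member, AT5G26270. AT5G26280 read 169.7, 326 and 242 in pnp1-1 on -P at 3 h, against 12.7, 25.8 and 12.3 in WT, and 265, 367 and 221 in pnp1-1 on +P at 1 week, against 20.9, 15.6 and 31.7 in WT. AT5G26270 read 127, 152 and 159 in pnp1-1 on -P at 3 h, against 36.5, 9.5 and 17.1 in WT, and 272, 333 and 342 in pnp1-1 on +P at 1 week, against 12.2, 11.1 and 13.1 in WT. Both were near the floor in WT and did not overlap between the genotypes in these conditions. Over the 4 conditions AT5G26280 differed by 2.80 to 3.77 and AT5G26270 by 2.76 to 4.29.

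Members tied to mitochondrial and redox stress formed a further group of 4, drawn up after the values were seen. The gene AT2G21640 encodes UPOX, a mitochondrial protein first described as upregulated by oxidative stress. It read 2204, 1926 and 1365 in pnp1-1 on -P at 3 h, against 82.0, 116 and 63.5 in WT, and 777, 1757 and 1092 in pnp1-1 on +P, against 63.2, 67.9 and 53.5 in WT. At 1 week it read 2203, 2601 and 2113 in pnp1-1 on -P, against 105, 337 and 338 in WT, and 2939, 2966 and 2139.6 in pnp1-1 on +P, against 243, 161 and 365 in WT. Within each condition no WT array came near the lowest pnp1-1 array, and the differences were 4.41 on -P and 4.22 on +P at 3 h, and 3.33 on -P and 3.45 on +P at 1 week.

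AT2G04050 encodes an efflux transporter of the MATE family, which carries small molecules out of cells. It read 261, 214 and 95.7 in pnp1-1 on -P at 3 h, against 32.0, 15.4 and 14.0 in WT, and 369, 213 and 149 in pnp1-1 on +P, against 15.0, 16.3 and 12 in WT. After 1 week AT2G04050 gave 523, 609.9 and 704 in pnp1-1 on -P, against 85.3, 69.0 and 105 in WT, and 639, 559.6 and 479 in pnp1-1 on +P, against 67.2, 30.2 and 31.2 in WT. Within each condition the genotypes were apart on all arrays, with differences of 3.12 on -P and 3.82 on +P at 3 h, and 2.83 on -P and 3.80 on +P at 1 week. UPOX and this transporter were 2 of 6 annotated genes on a list of 14 that are known to respond to mitochondrial dysfunction. The other 4 were at least 0.8 higher in pnp1-1 in some conditions only. Among them AT5G09570, a small mitochondrial protein with paired cysteines, differed by 3.86 on -P and 3.69 on +P at 3 h, and 0.72 on -P and 4.35 on +P at 1 week. Members made up 0.849% of all eligible probe sets, and this list was written with earlier results of these data known.

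MSRB9, a methionine sulfoxide reductase that repairs oxidised methionine, varied more between replicates. It read 843, 912 and 852 in pnp1-1 on -P at 3 h, against 63.1, 229 and 65.3 in WT, and 430.5, 1672 and 587 in pnp1-1 on +P, against 28.2, 118 and 8.2 in WT. The 1 week arrays of MSRB9 gave 917, 1080.4 and 445 in pnp1-1 on -P, against 25.4, 403 and 80.8 in WT, and 1414, 1523 and 707 in pnp1-1 on +P, against 27.5, 31.2 and 165 in WT. Replicate 2 of WT was the highest WT array in 3 of the 4 conditions, yet the genotypes did not overlap. Its differences were 3.15 on -P and 4.32 on +P at 3 h, and 3.02 on -P and 4.46 on +P at 1 week. The fourth gene of the group, AT3G03060, which encodes an ATPase of the AAA family, differed by 0.81 to 1.56. No gene was a member among the 3 annotated on a separate list for oxidative stress. GSTU25 differed by -1.59 on -P and 1.38 on +P at 3 h, and -0.18 on -P and 0 on +P at 1 week. STZ differed by -0.47 on -P and 0.67 on +P at 3 h, and 0.62 on -P and 2.03 on +P at 1 week. AT3G28580 was under 16 on all 3 h arrays and differed by 2.35 on -P and 2.18 on +P at 1 week.

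Defence proteins made up 8 of the annotated members. PDF1.4, a plant defensin, which is a small antifungal peptide, had its largest difference at 3 h. It read 330.0, 1023 and 185 in pnp1-1 on -P at 3 h, against 12.7, 23.6 and 4.2 in WT, and 87.2, 707 and 136 in pnp1-1 on +P, against 35.8, 23.3 and 7.4 in WT. At 1 week it gave 2358, 2707 and 2388 in pnp1-1 on -P, against 152, 2089 and 799 in WT, and 2884, 2805 and 2629 in pnp1-1 on +P, against 875, 740.2 and 745 in WT. The pnp1-1 arrays at 1 week were close together, while WT on -P ran from 152 to 2089. PDF1.4 differed by 4.45 on -P and 3.10 on +P at 3 h, and 1.97 on -P and 1.82 on +P at 1 week.

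The remaining defence members covered hydrolases, signalling and lignin chemistry. AT4G16260, of the beta-glucanase family that digests fungal walls, differed by 2.91 on -P and 2.91 on +P at 3 h, and 1.12 on -P and 3.47 on +P at 1 week. AT4G01700, of the chitinase family, differed by 1.24 on -P and 1.99 on +P at 3 h, and 2.91 on -P and 3.29 on +P at 1 week. SAG101, a partner of the immune regulator EDS1, had smaller differences, at 1.03 on -P and 1.04 on +P at 3 h, and 0.88 on -P and 1.61 on +P at 1 week. CCR2, a cinnamoyl-CoA reductase of lignin formation, differed by 1.1 on -P and 1.44 on +P at 3 h, and 1.34 on -P and 2.60 on +P at 1 week. The other three were the receptor-like kinase AT1G51890, the PR-1-like protein AT2G19970 and the defensin-like protein AT3G05730, with differences between 0.88 and 3.28. SAG101 was the single member on a list of salicylic acid and defence genes of which 2 were annotated. The other, GRX480, differed by -0.61 on -P and 0.85 on +P at 3 h, and 2.02 on -P and 2.16 on +P at 1 week.

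Transcripts linked to jasmonate and gibberellin were members too. JRG21 is a jasmonate-induced oxygenase, one of the family that hydroxylates and so inactivates jasmonic acid. It read 1134, 1754 and 720.2 in pnp1-1 on -P at 3 h, against 63.1, 218 and 11.8 in WT, and 122, 2492 and 452 in pnp1-1 on +P, against 33.3, 85.2 and 26.0 in WT. After 1 week JRG21 read 1395, 1578 and 2435 in pnp1-1 on -P, against 354, 829.7 and 1883 in WT, and 1092, 880.0 and 1857 in pnp1-1 on +P, against 489.9, 132 and 354 in WT. The genotypes overlapped on -P at 1 week, where WT replicate 3 lay above pnp1-1 replicates 1 and 2 although pnp1-1 was higher in each same-numbered pair, and the difference there was 1.09 against 4.22 on the same medium at 3 h. A relative, AT5G05600, differed by 1.14 on -P and 1.5 on +P at 3 h, and 0.96 on -P and 1.48 on +P at 1 week. All 4 oxygenases listed for this family were annotated, on a list drawn up after the values were seen. Besides these members, AT2G38240 differed by 2.24 on -P and 2.67 on +P at 3 h, and 0.05 on -P and 1.31 on +P at 1 week, and AT3G11180 had group means at the floor in every condition. PDF1.2, the only annotated gene on a separate jasmonate list, was not a member. It differed by 0.32 on -P and 0.17 on +P at 3 h, where most arrays lay under 16, and -0.28 on -P and 1.65 on +P at 1 week. GID1B, a gibberellin receptor, differed by 1.42 on -P and 2.01 on +P at 3 h, and 1.1 on -P and 1.73 on +P at 1 week.

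Lipid transfer proteins, which carry lipids in the cell wall and cuticle, supplied 3 members and the wax ester synthase family 2. AT4G12490 read 1277, 4733 and 2846 in pnp1-1 on -P at 3 h, against 162, 606 and 58.4 in WT, and 632, 2173 and 2171 in pnp1-1 on +P, against 63.3, 159 and 79.1 in WT. At 1 week the arrays gave 15220.4, 16568 and 12789 in pnp1-1 on -P, against 4355, 8205 and 8472 in WT, and 11129.6, 13748 and 7617 in pnp1-1 on +P, against 5587, 5128 and 3743 in WT. The difference was 3.85 and 3.96 at 3 h but 1.14 and 1.15 at 1 week. AT4G12500 lies 2 genes along in the annotation and read 6437, 4804 and 5025 in pnp1-1 on -P at 1 week, against 813, 1249 and 854 in WT, and 3366, 5335 and 2659 in pnp1-1 on +P, against 527, 388 and 316 in WT. Its differences of 2.50 to 3.18 kept to a narrow range, without overlap at 1 week. The remaining 3, AT5G55450, AT3G49210 and AT5G12420, differed by 1.05 to 2.72.

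**Figure D3:**
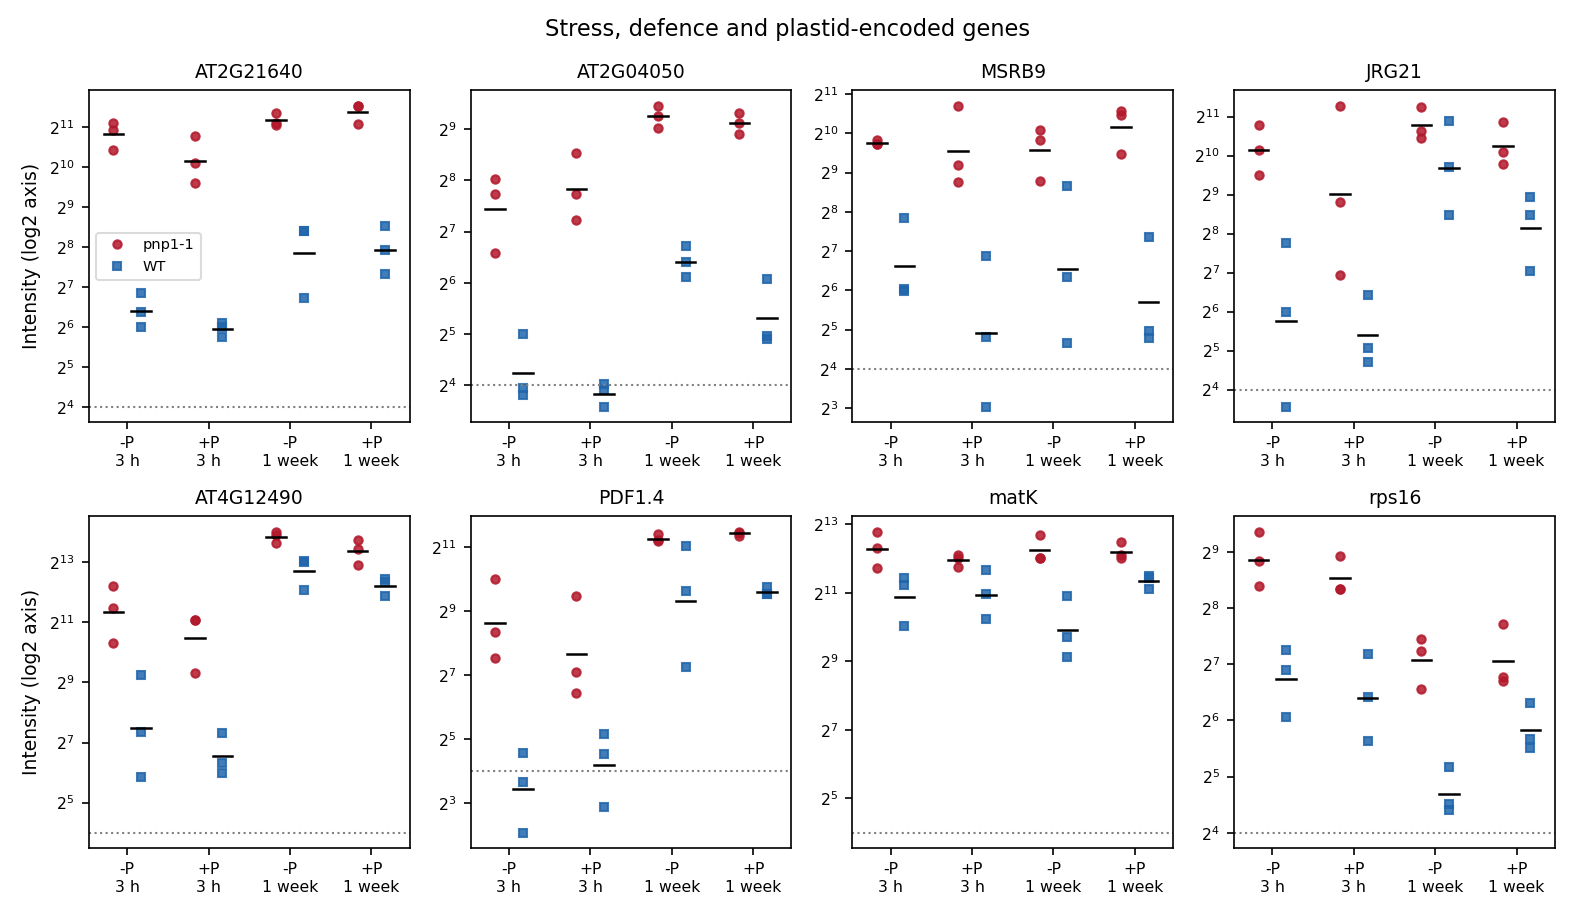
Intensities on each array (log2 axis, dotted line at 16) are shown for 6 stress, defence, hormone and lipid transfer genes and for the 2 plastid-encoded members, with pnp1-1 as red circles to the left of WT as blue squares and bars at the means of the log2 values. JRG21 and PDF1.4 show WT arrays close to or within the pnp1-1 range on -P at 1 week, whereas AT2G21640 and AT2G04050 stay apart in each condition.

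The plastid-encoded members belong to neighbouring genes. The gene matK encodes a maturase that helps plastid introns to be spliced, and rps16 encodes a protein of the small plastid ribosome subunit. For matK the arrays read 3396, 5076 and 7068 in pnp1-1 on -P at 3 h, against 1039, 2393 and 2758 in WT, and 3479.6, 4428 and 4104 in pnp1-1 on +P, against 1199, 1986 and 3241 in WT. At 1 week they read 4102, 4161 and 6636 in pnp1-1 on -P, against 832, 555 and 1910.2 in WT, and 4149.8, 4406 and 5738 in pnp1-1 on +P, against 2761, 2214 and 2883 in WT. The pnp1-1 arrays lay above WT in each condition, and the difference was 2.34 on -P at 1 week, against 0.86 on +P. For rps16 the arrays on -P at 1 week read 94.8, 151 and 174 in pnp1-1, against 21.2, 22.7 and 36.0 in WT, and those on +P read 104, 110.0 and 209.6 in pnp1-1, against 79.2, 45.4 and 51.2 in WT. The differences of rps16 were 2.12 on -P and 2.13 on +P at 3 h, and 2.39 on -P and 1.24 on +P at 1 week. Unlike most of the set, both thus had their largest difference on -P at 1 week and their smallest on +P at that time.

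A nuclear gene for a plastid protein, Cpn60beta3, was just inside the rule. It encodes a subunit of the chaperonin that folds plastid proteins. Arrays on +P at 1 week read 385, 355 and 369 in pnp1-1, against 153, 164 and 178 in WT, and those on -P at 3 h read 375, 433 and 446 in pnp1-1, against 273, 223 and 220.1 in WT. The groups were tight and separate at differences of 0.81 on -P and 0.84 on +P at 3 h, and 1.01 on -P and 1.17 on +P at 1 week. Its relative Cpn60beta2 was not a member and differed by 0.41 on -P and 0.65 on +P at 3 h, and 0.99 on -P and 1.49 on +P at 1 week. Cpn60beta4 differed by -0.11 on -P and -0.33 on +P at 3 h, and -0.13 on -P and -0.44 on +P at 1 week, so that it was slightly lower in pnp1-1 in each condition.

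Several leading members fell outside these groups. AT1G17960, which encodes a threonyl-tRNA synthetase, read 108, 262 and 94.4 in pnp1-1 on -P at 3 h, against 5.5, 6.0 and 7.0 in WT, and 147, 126 and 99.9 in pnp1-1 on +P at 1 week, against 14.9, 12.7 and 12.9 in WT. WT never left the range under 16, and the difference was 2.75 to 3.13 over the conditions. AT5G60250, which encodes a zinc finger protein, read 265, 169 and 204 in pnp1-1 on +P at 3 h, against 9.2, 6.2 and 6.5 in WT, and 334, 559 and 331 in pnp1-1 on -P at 1 week, against 18.9, 43.8 and 141 in WT. It differed by 3.02 to 3.84, without overlap in these conditions.

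ARPN, a plantacyanin or blue copper protein of the cell surface, had its largest difference on +P at 1 week. On -P it read 430.4, 471 and 313 in pnp1-1, against 74.99, 169 and 126 in WT, and on +P it read 2491, 1954 and 1813 in pnp1-1, against 122, 35.1 and 52.1 in WT. The pnp1-1 arrays on +P stood above all others and those on -P well below them, so that the difference was 5.09 on +P and 1.77 on -P. AT3G44970, a cytochrome P450, also had its largest difference there, at 481, 238 and 457 in pnp1-1 on -P, against 67.0, 117 and 193 in WT, and 593, 587 and 569 in pnp1-1 on +P, against 83.4, 9.79 and 17.1 in WT. The WT arrays of AT3G44970 on +P reached down to 9.79, and its differences were 4.36 on +P and 1.71 on -P.

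A pair of berberine bridge enzyme-like oxidases, AT1G30700 and AT5G44380, were members as well. AT5G44380 read 579.8, 603 and 547 in pnp1-1 on -P at 1 week, against 169, 494 and 307 in WT, and 528, 766 and 341 in pnp1-1 on +P, against 56.0, 38.0 and 124 in WT. One WT array came close to pnp1-1 on -P and none did on +P, at differences of 0.97 and 3.01. Other annotated members included the drought-induced protein DI21 (2.84 on -P and 2.52 on +P at 3 h, and 1.43 on -P and 1.62 on +P at 1 week). PANB2, an enzyme of pantothenate synthesis, was a further member (1.29 on -P and 1.09 on +P at 3 h, and 0.82 on -P and 1.04 on +P at 1 week).

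Among the 90 probe sets with no gene, 254385_s_at had the largest mean difference of 3.84, with 2.80 to 4.54 in the single conditions. It was also one of the 10 whose suffix marks shared probes. The next, 256459_at, differed by 2.03 to 4.1.

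The next question was whether phosphate itself moved these transcripts. The average of both genotypes on -P minus that on +P is not built from the pnp1-1 minus WT differences, and it was tested. It is not free of the rule, which, by its floor at 16, asked for pnp1-1 means above that level in every condition. The members also spread unequally between groups. The shares of members and of all probe sets called below are therefore not like for like. The fit took all arrays as independent. Same-numbered pnp1-1 and WT arrays at 1 week varied together on -P (correlations of 0.55 to 0.62) but not on +P (-0.52 to 0.18). The SE and adjusted p values do not allow for this and may be too small. After 1 week, limma with Benjamini-Hochberg adjustment over 22746 probe sets called 27 of the 192 members at an adjusted p under 0.05 (14.1%), against 3.78% of all probe sets. Of these, 26 were higher on -P (13.5%, against 2.55%) and 1 was lower (0.521%, against 1.23%). Where only probe sets reaching 16 on at least 3 arrays were tested, the count was 31 of the members, against 5.92% of those tested. That filter asks for less than the rule did. The number was 17 without pnp1-1 +P replicate 3 and 110 with array weights, whose estimation stopped before it converged and which called 34.1% of all probe sets.

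The 26 rises ran from 0.50 to 4.04 with a median of 1.94, and 10 of them belonged to a single annotated gene. AT4G16260, the beta-glucanase family gene, rose on -P. At 1 week in pnp1-1 it read 3646, 4345 and 3246 on -P and 1757, 2882 and 1087 on +P. In WT it read 1456, 2138 and 1599 on -P and 131, 149 and 208 on +P. Every -P array lay above every +P array of its genotype, and the averaged rise was 2.25 ± 0.45 (SE; adjusted p = 0.00753).

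AT4G01700, the chitinase family gene, also rose. In pnp1-1 it read 1168, 1548 and 1422 on -P and 421, 586 and 516 on +P. In WT it read 149.6, 319.9 and 125 on -P and 80.0, 33.1 and 51.5 on +P. The media did not overlap in either genotype, and the averaged rise was 1.63 ± 0.27 (SE; adjusted p = 0.00134). With a replicate block within genotype the call was lost (limma, adjusted p = 0.0689). The responses were 1.45 ± 0.38 in pnp1-1 and 1.82 ± 0.38 in WT (SE), and their difference was not tested.

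AT1G65690 encodes a protein of the hydroxyproline-rich LEA family. Its arrays in pnp1-1 read 406, 559 and 504 on -P and 189, 191 and 127 on +P. In WT they read 119, 215 and 209 on -P and 28.7, 22.2 and 21.0 on +P. The rise averaged 2.21 ± 0.43 (SE; adjusted p = 0.00547), with no overlap between media.

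AT1G30700, the berberine bridge enzyme-like oxidase, read 1474, 1626 and 1674 in pnp1-1 on -P and 351, 580.0 and 385 on +P. In WT it read 336, 616 and 839 on -P and 64.4, 21.3 and 73.6 on +P. Its averaged rise of 2.74 ± 0.67 (SE) was the largest of an annotated member, at an adjusted p of 0.0269. That call was lost in 10 of 23 alternative settings, where the adjusted p reached at most 0.0875.

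Both remaining rises named by rule were smaller. AT2G18690 read 2799, 4126 and 2793 in pnp1-1 on -P and 1862, 2170.3 and 1395 on +P. In WT it read 827, 1269 and 735 on -P and 256, 187 and 269 on +P. Without overlap between media, it rose by 1.4 ± 0.36 (SE; adjusted p = 0.0357), a call lost in 12 of 23 settings with adjusted p up to 0.103. AT5G40690 read 1170.2, 987 and 601 in pnp1-1 on -P and 645, 785 and 401 on +P, where the media overlapped. Its WT arrays read 244, 910.5 and 370.1 on -P and 101, 101 and 100.4 on +P, with no overlap. The averaged rise was 1.35 ± 0.31 (SE; adjusted p = 0.0181). That call was lost with a replicate block within genotype (adjusted p = 0.0639) and without pnp1-1 +P replicate 3 (adjusted p = 0.0593). The other 4 annotated rises were AT4G25900 at 1.06 ± 0.18, AT1G23120 at 1.04 ± 0.27, AT3G22850 at 0.85 ± 0.14 and LigB at 0.51 ± 0.14 (SE), with adjusted p between 0.00163 and 0.0479.

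The exception was AT3G15720, of the pectin lyase-like family that acts on cell wall pectin. In pnp1-1 it read 17.1, 57.9 and 27.6 on -P and 204, 123 and 102 on +P. In WT it read 4.61, 10.1 and 7.95 on -P and 19.0, 132 and 124 on +P. All -P arrays lay below the +P arrays of the same genotype, and all WT arrays on -P were under 16. It fell on -P, with an averaged difference of -2.71 ± 0.49 (SE; adjusted p = 0.003), or -2.13 with levels under 16 set to 16.

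**Figure D4:**
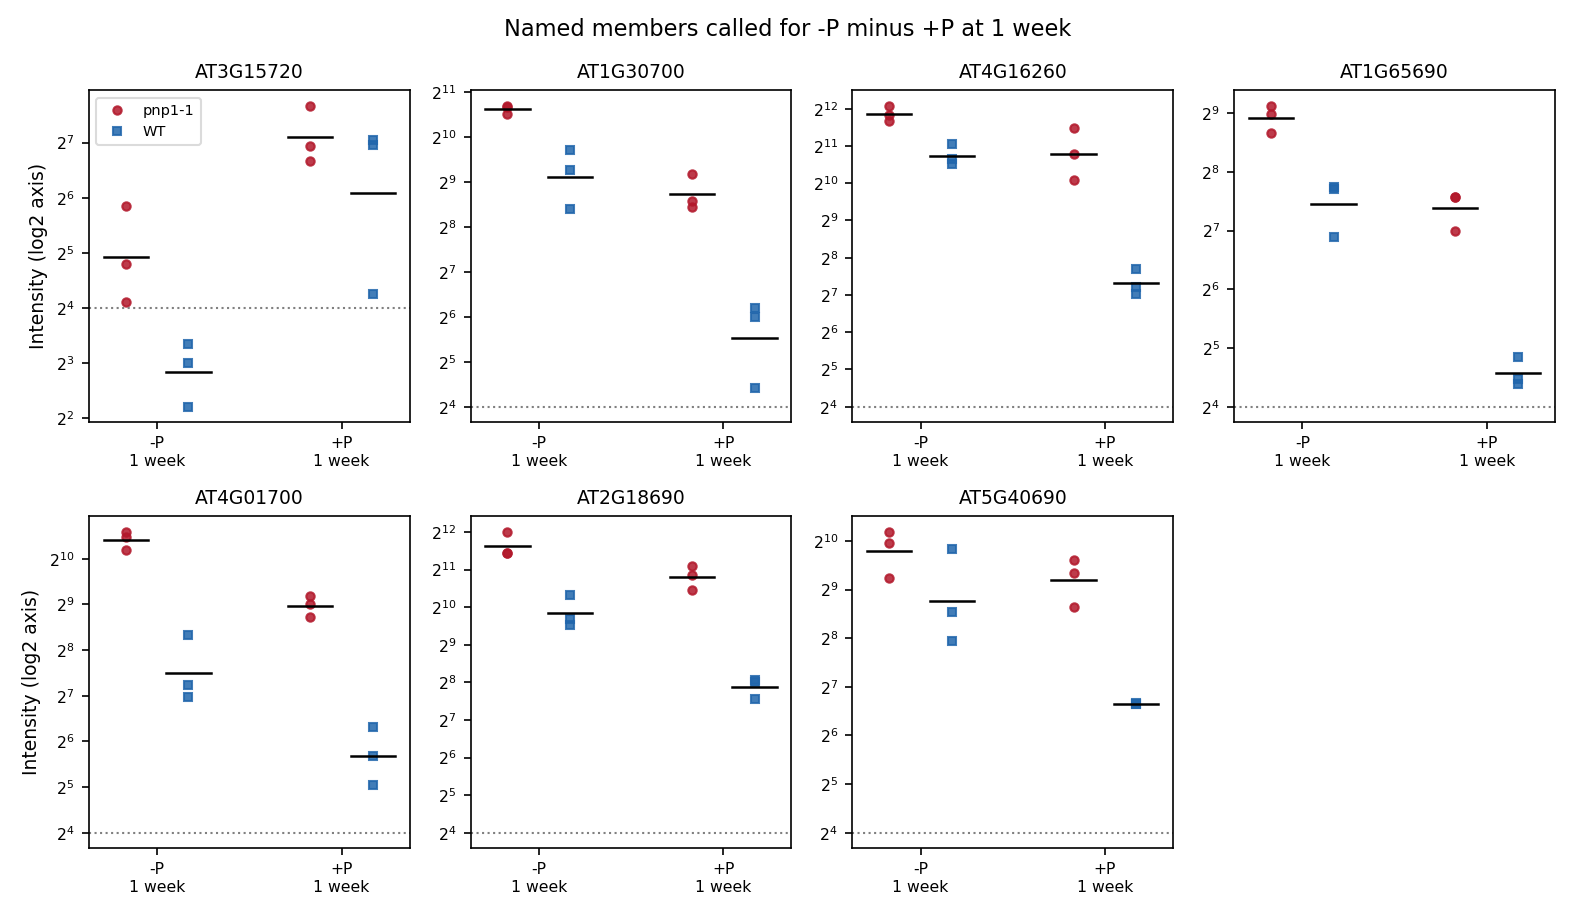
Intensities on each array at 1 week (log2 axis, dotted line at 16) are plotted for the 7 annotated members named for their phosphate response, with -P left of +P, pnp1-1 as red circles, WT as blue squares and bars at the means of the log2 values. AT3G15720 is lower on -P in both genotypes, and the other 6 are higher on -P, with WT on +P lowest in each.

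Within the genotypes the responses of the members were unequal in size, which the differences behind the rule already fix and which was not tested. The median response to -P at 1 week was 0.13 in pnp1-1 and 0.73 in WT, against -0.02 and 0.02 over all probe sets. Among the 26 called rises the medians were 1.38 in pnp1-1 and 2.44 in WT, and 24 of them were larger in WT. In WT, 87 members (45.3%) stood at least 0.8 higher on -P than on +P with levels under 16 set to 16, against 4.81% of eligible probe sets. Both WT groups in this count also fed the rule that chose the members. The shares are therefore not like for like and were not tested.

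At 3 h limma called 0 members, as it called 0 of 22746 probe sets (0%). At an unadjusted p under 0.05 it gave 9 members (4.69%), against 1.54% of all probe sets. As at 1 week, these shares are not like for like. The averaged difference was above 0 for 164 members, against 39.6% of all probe sets, with a median of 0.24. The members deviate together from array to array, so this count does not stand for separate measures of a response. On single 3 h arrays their mean lay up to 0.77 from that of their group. No member was named for a response at 3 h.

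Within groups, the members tended to deviate together from array to array. When each array's deviation from its group mean was taken, a member's deviations over the 24 arrays correlated with the mean of the other members at a median of 0.57 (Pearson, 192 members), and 110 members exceeded 0.5. The other 22428 eligible probe sets had a median of -0.06 against the mean of the members, and 4.48% exceeded 0.5. These values share the arrays, and many of the other probe sets lie near background, so they are given as a description.

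The arrays that carried this are easily named. In pnp1-1 on +P at 3 h, the members stood 0.77 above their group mean on replicate 2 and at -0.48 on replicate 1. In WT on -P at 1 week they stood 0.47 above it on replicate 2 and at -0.50 on replicate 1. On -P at 3 h, replicate 2 was high in both genotypes, by 0.45 in pnp1-1 and by 0.46 in WT. The mean over the other 22428 eligible probe sets deviated by at most 0.03 on any array. Normalization of the arrays tends to hold such a mean near 0, and single probe sets can deviate by more. Among the arrays named above, WT -P replicate 1 at 1 week was also 1 of 3 with a raised lower quartile of intensity (6.36 to 6.45, against 5.41 to 5.76 on the other 1 week arrays). Without that array 147 probe sets passed the rule, the median difference of the 192 on -P at 1 week was 1.22, and 26 members were called for phosphate at 1 week. Without all 3 such arrays, 164 passed and 20 were called.

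**Figure D5:**
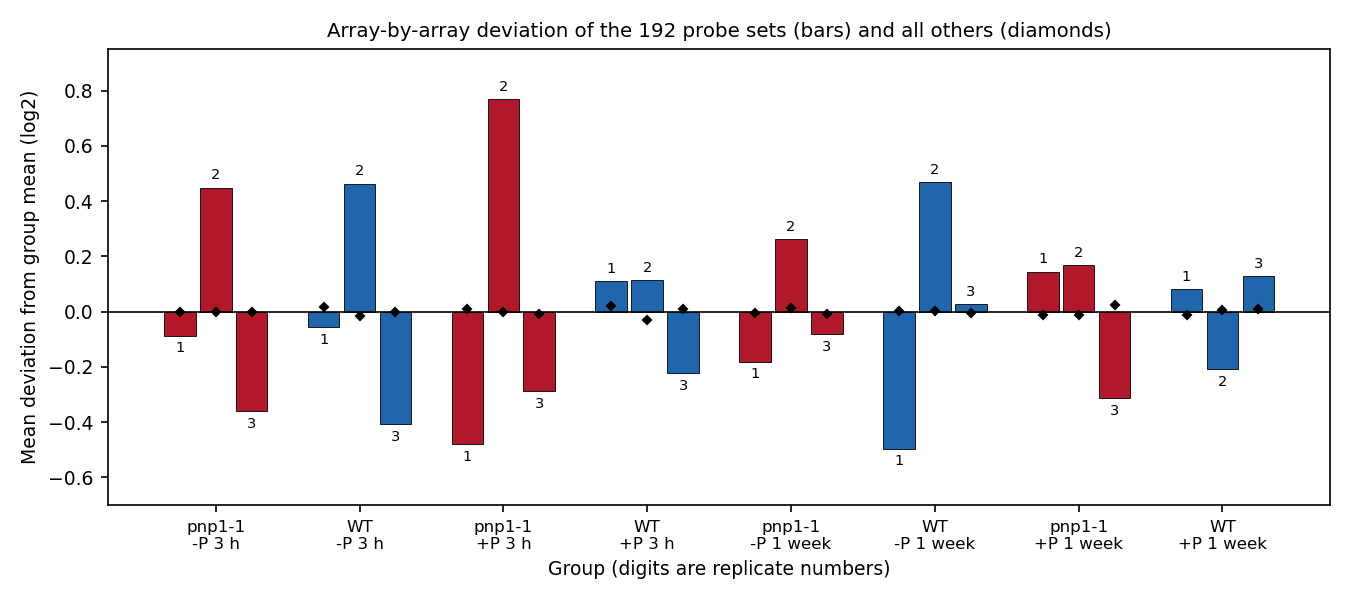
Bars give the mean deviation of the 192 probe sets from their group mean on each array (log2; red for pnp1-1, blue for WT; digits are replicate numbers), and diamonds give the same for all other eligible probe sets. The means of the members lie between -0.50 and 0.77. The diamonds, each a mean over 22428 probe sets of normalized arrays, stay near 0.

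The member that followed the others most closely was 245976_at, with a correlation of 0.95, and PDF1.4 came next at 0.90. Outside the set, the closest probe sets were those of AT5G18310 (0.91), of the peroxidase Prx37 (0.90) and 267496_at (0.89). AT5G18310 and 267496_at missed the rule on -P at 1 week, with differences of 0.49 and 0.79. Prx37 missed it on -P at 3 h, at 0.61, and differed by 3.47 on +P at 1 week.

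The edge of the set was crowded. The smallest of the 4 differences lay within 0.05 above the limit for 25 members and within 0.05 below it for 22 other probe sets. Just inside were AT3G03270, with 0.805 on +P at 3 h, and AT1G14210, with 0.805 on -P at 3 h. Just outside were 263921_at, with 0.796 on +P at 3 h, and AT4G23680, with 0.796 on -P at 1 week although it differed by 3.90 on -P at 3 h. Leaving out 1 array at a time gave sets of 147 to 223 probe sets, and 78 members were in every one of them.

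Gene lists for other pathways had few annotated genes, at most 6 in each. As 0.849% of eligible probe sets were members, a list without members says little about its pathway. Of 15 lists written for the shoot, 3 (phosphate starvation, heat shock and flowering) had no annotated gene, and members occurred in 2, those for mitochondrial dysfunction and for salicylic acid and defence. Both annotated light-harvesting genes were below WT in each condition, LHCB4.2 by -1.63 on -P and -1.48 on +P at 3 h, and -0.76 on -P and -0.80 on +P at 1 week. The 4 annotated cold and drought genes were mixed. COR15A and COR15B lay at least 0.8 below WT in every condition, COR15B at -1.85 on -P and -3.40 on +P at 3 h, and -2.05 on -P and -1.89 on +P at 1 week. LTI30 differed by 0.22 on -P and 0.61 on +P at 3 h, and -1.31 on -P and -1.18 on +P at 1 week. COR47 differed by 0.28 on -P and 0.20 on +P at 3 h, and -1.48 on -P and -0.31 on +P at 1 week. All 4 were thus at least 0.8 lower only on -P at 1 week. Of all eligible probe sets, 4.36% on -P and 5.31% on +P at 3 h, and 3.17% on -P and 5.38% on +P at 1 week, were as far below WT. GI, a clock gene, differed by -0.87 on -P and -0.62 on +P at 3 h, and -0.79 on -P and -0.72 on +P at 1 week, so that the single annotated clock gene was lower in pnp1-1 in every condition. Few genes of each list were annotated, and no list was tested.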

How the data were processed

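The authors deposited 1 normalized table of linear-scale intensity values, with a row per probe set and a column for each of the 24 biotin-labelled arrays. The submitters' processing notes name GCRMA, affy and limma without versions or order, and normalization batches and genome build were not stated there. The values of the 3 h arrays are written with 1 decimal and those of the 1 week arrays with 2, so time and batch cannot be told apart and no level was compared between the times. Replicates are biological per the series' design. WT +P replicates 2 and 3 at 1 week share 404 identical values, against 4 to 136 for other pairs at that time, and were kept as 2 samples.

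Here log2 was taken and the 64 control probe sets were left out. Log2 intensity was fitted by lmFit and eBayes of limma 3.58.1 (R 4.3.3; 1 mean per group, all 24 arrays, 16 residual degrees of freedom plus a prior worth 1.4), with Benjamini-Hochberg adjustment over 22746 probe sets and an adjusted p threshold of 0.05. The tested contrasts average both genotypes. On simulated data for -P minus +P at 1 week, the fit over 22746 probe sets recovered 73.5% of 200 simulated log2 changes of 1 and 94% of 200 changes of 2. It also called 6 and 12 unchanged probe sets. The simulated noise was independent between arrays and probe sets, unlike the shared deviations of the real arrays. Only probe sets with a mean level clear of background were changed, so recovery in the real data may be lower. The number of arrays limits the precision.

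Members, lists and role groups were chosen with earlier results of these data known; the role groups and the lists of ER body genes, jasmonate-induced oxygenases and chaperonins were drawn up after the values were seen. Genes came from a platform annotation, and gene order from RefSeq's TAIR10.1. By rule, the text names the 16 annotated members with the largest mean difference, up to 6 rises and 6 falls called at 1 week, and members on the lists. It also names the 2 nearest probe sets on each side of the limit and the 3 other probe sets most alike over arrays. Role groups added further members, and the leading unannotated probe sets, DI21, PANB2 and 245976_at were chosen after their values were seen. Same-numbered -P and +P arrays of a genotype deviated together at 3 h (6 of 6 correlations over 0.1, 0.23 to 0.69) but not at 1 week (3 of 6, -0.52 to 0.78), so the numbers pair those media at 3 h, as far as the data show. Same-numbered pnp1-1 and WT arrays deviated together on -P at both times (6 of 6, 0.16 to 0.62). On +P they did not (1 of 6, -0.52 to 0.18). A block leaves the mean differences between the genotypes as they are. Neither the main fit nor the block within genotype models the sharing between genotypes. The SE of the averaged contrasts may thus be too small.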

Additional observations from a re-analysis of the deposited data

Results flagged for a closer look

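At 1 week, every JAL33 array on -P lay below every +P array in pnp1-1 and above every +P array in WT. The lectin gene JAL33 had a response to -P of -0.47 in pnp1-1 and of 0.90 in WT. The difference between these responses was not tested, and they share arrays with the differences that chose the members. For 2 further members the same picture came only from the order of WT values under 16, which is not dependable. At 3 h, AT1G30160 had a response of 0.74 in pnp1-1 and of -0.54 in WT, where all its WT arrays lay under 16 and the WT response was 0 with those levels set to 16. At 1 week, AT1G14120 had a response of -0.88 in pnp1-1 and of 0.87 in WT, where all but 1 array lay under 16 and the response was 0.17 with those levels set to 16. No opposite response is read from these 2 members. The groups hold 3 arrays each, too few for a search for single outlying arrays.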

How the results depend on the processing

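The size of the set depends on its limits: 322 probe sets passed a limit of 0.6 and 121 a limit of 1.0, while 228 passed 0.8 with no floor and 176 with medians of replicates, 141 of them shared with the 192. Leaving out 1 array gave 147 (without WT -P replicate 1 at 1 week) to 223 (without WT -P replicate 2 at 1 week), and leaving out the 3 arrays of raised lower quartile, added after seeing the data, gave 164. For the members' median difference, which the rule starts above 0.8, leaving out 1 array gave 1.38 to 1.82 on -P at 3 h, 1.41 to 2.01 on +P at 3 h, 1.22 to 1.59 on -P at 1 week and 1.80 to 2.19 on +P at 1 week.

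The 27 members called at 1 week became 110 with array weights, whose estimation stopped before it converged and with which 34.1% of all probe sets were called; the cause was not tested. Leaving out 1 array gave 17 (without pnp1-1 +P replicate 3) to 30. Fitting the 12 arrays alone gave 40, a replicate block 39, and a block within genotype, added after seeing the data, 24. It was 19 with WT +P replicates 2 and 3 averaged. AT3G15720, AT4G16260 and AT1G65690 were called in all 23 settings; AT5G40690 was lost in 2 and AT4G01700 in 1, the block within genotype (adjusted p up to 0.0639 and 0.0689). At 3 h, 0 members were called in all 21 settings, the replicate block included. Levels under 16 have no dependable order, which limits 54 members with all WT arrays there in at least 1 condition.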
